A study of Mus musculus with 8 samples.

Results

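Caveolae are small flask-shaped pits of the surface membrane, and the genes described here encode the proteins that build them. They are the caveolins Cav1, Cav2 and Cav3, the cavins Cavin1, Cavin2, Cavin3 and Cavin4, and the neck proteins Ehd2, Pacsin2 and Pacsin3, selected on the genotype contrast of these same libraries, in which the log2 fold change of Cavin4 stood out. All 10 were found by symbol among the 49315 genes counted, and all 10 were among the 16372 genes with enough reads to be tested. The libraries came from dissected mouse hearts at embryonic day E18.5, 4 from wild-type (WT) animals and 4 from animals of the genotype CHD4 M195I/M195I. CHD4 is a helicase-like ATPase that moves nucleosomes as part of the NuRD complex, and both Chd4 copies of the mutant animals carry the protein change M195I. The labels name no promoter, Cre, litter, strain or pooling, so p-values measure only the spread between these samples. Because the genotype contrast was used to choose the genes, their differences between genotypes are given as a description without a test.

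Caveolins insert into the inner leaflet of the membrane as a hairpin, and cavins assemble around them from the cytosol as a coat. EHD and F-BAR proteins sit at the neck of the pit and shape or stabilise it. Cav1 and Cav2 are the forms of endothelium, fibroblasts and adipocytes, while Cav3 and Cavin4 are the forms of striated muscle, where caveolae buffer membrane stretch and are linked to the growing T-tubule system.

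Cavin4 was the member that set the genotypes apart, with a mutant mean at 45.5% of the WT mean. Pacsin3 was lower by a smaller amount, Cav1 and Pacsin2 were slightly lower, and the other 6 genes had overlapping values in the 2 genotypes. Cav3, the muscle partner of Cavin4, lay at 101.4% of its WT mean. Of the 10 genes, 4 had every mutant value below every WT value, as did 9.77% of all tested genes. In the fit over all genes (edgeR's quasi-likelihood test with Benjamini-Hochberg adjustment), genes with an adjusted p under 0.05 were called, 7.49% of tested genes lower and 5.75% higher. The same 4 members were on the lower side of that threshold and 0 on the higher side, a count from which nothing is read, because this contrast chose the genes. The median log2 fold change of all 10, mutant minus WT, was −0.09 beside 0.00 for all tested genes. With TMM scaling, 9 of the 10 fold changes were below 0, while with plain library totals those of Cavin1, Cavin2 and Cavin3 lay at 0.03 and the median at −0.036.

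The total count per library ran from 18375951 to 21341235. In WT hearts Chd4 itself had 452 ± 6.37 CPM and in mutant hearts 482 ± 8.48 (SD, n = 4; CPM, counts scaled to the library size after TMM correction; log2 fold change 0.09 ± 0.03 SE, adjusted p = 0.094 by edgeR). Every mutant Chd4 value, 474 to 494 CPM, was above every WT value, 445 to 460 CPM. Chd4 was called higher with DESeq2 and with library totals, at 0.10 and 0.14, and gene counts do not show the M195I change. The heart label was checked on marker genes: all 7 cardiomyocyte markers were tested and summed to 28346 to 31574 CPM in WT and 23525 to 28846 CPM in mutant libraries. Of the 8 airway and lung markers, which the label does not name, Scgb3a2 exceeded 10 CPM in 3 WT and 2 mutant libraries, called libraries with airway RNA here. The other libraries, called without airway RNA, were below that cut rather than free of Scgb3a2. Mutant replicate 1 among them had 6.48 CPM of the library total. The count headers begin with the word Male, and the Y-linked gene Ddx3y was at 36.2 CPM in WT replicate 4 and at 68.5 to 80.5 CPM in the other 7. With library totals in place of TMM, the share of calls that were higher went from 43.5% to 68.4%.

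**Figure D1:**
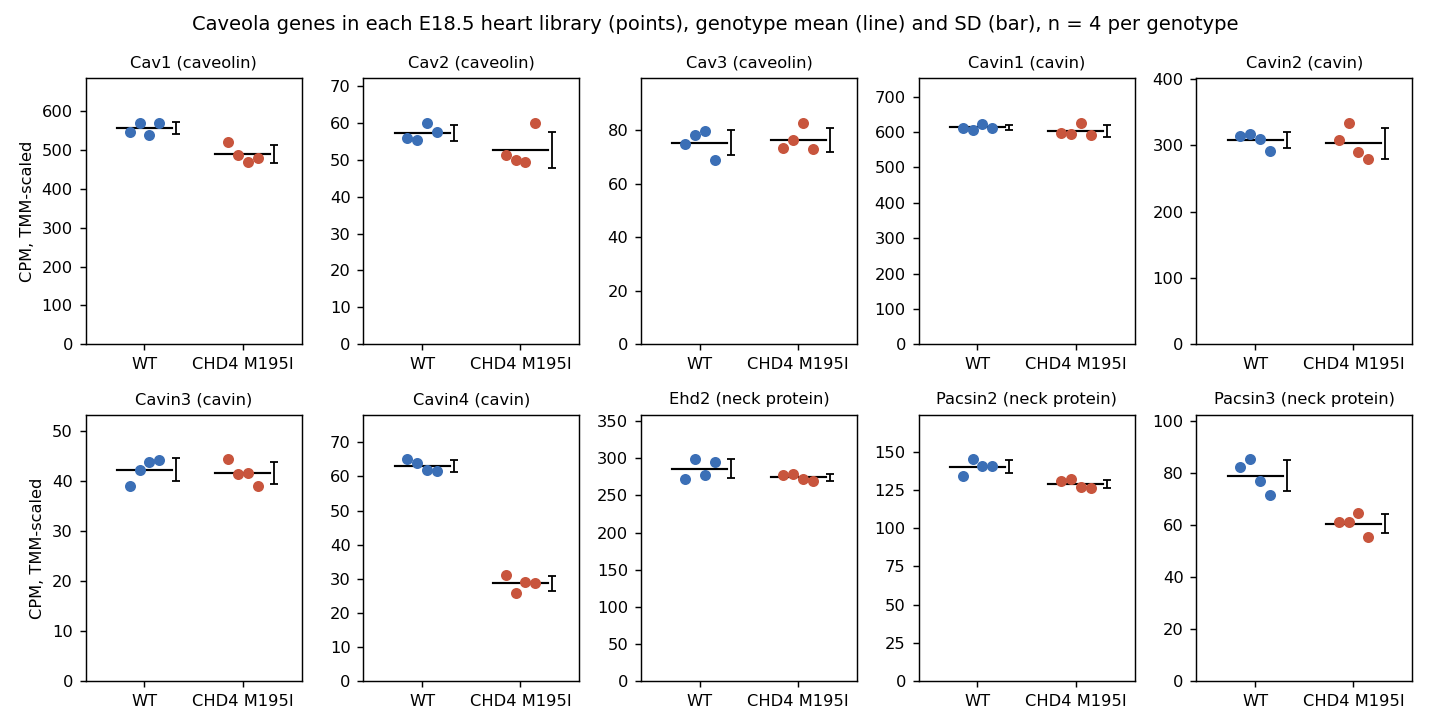
TMM-scaled CPM of the 10 caveola genes in each library (points), with the genotype mean (line) and SD (bar), n = 4 per genotype; each axis starts at 0. The 4 mutant Cavin4 points lie between 25.7 and 31.2 CPM, below every WT point, while the Cav3 points of both genotypes share 1 range.

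Among the caveolins, Cav1 forms the scaffold of caveolae in non-muscle cells. Its gene lies at chr6:17306335-17341452 on the plus strand (GRCm38, as for all positions here). Cav1 was at 548, 571, 539 and 571 CPM in WT replicates 1 to 4 and at 521, 489, 469 and 481 CPM in mutant replicates 1 to 4. Every mutant value was below every WT value, and the log2 fold change was −0.18 ± 0.04 (SE). In the 3 libraries with under 10 CPM of Scgb3a2 (1 WT, 2 mutant) the difference was −0.17.

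Cav2, which pairs with Cav1 and depends on it to reach the surface, lies 17220 bases from it at chr6:17281185-17289115. Its WT values were 55.9, 55.5, 60.0 and 57.5 CPM, and its mutant values 51.3, 49.9, 49.4 and 60.0 CPM. The groups overlapped only through mutant replicate 4, which reached the top of the WT range. The log2 fold change was −0.12 ± 0.06 with all libraries and −0.19 without mutant replicate 4. That library also held 124 CPM of Sftpc and 16.2 CPM of Ager, markers of the alveolar epithelium, against at most 4.08 and 3.37 CPM in the other 7 (CPM of the library total); their part in the Cav2 value was not tested.

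Cav3, the caveolin of cardiac and skeletal muscle, lies at chr6:112459505-112472872. It was at 75.02, 78.1, 79.7 and 68.8 CPM in WT libraries and at 73.5, 76.4, 82.8 and 73.0 CPM in the mutant ones. The groups overlapped across most of their range, with a log2 fold change of 0.02 ± 0.05. Its sign was not stable: Cav3 was at −0.05 in the 3 libraries without airway RNA and at 0.07 with library totals. Cav3 shares chromosome 6 with Chd4, 12.6 Mb away, while Cav1 and Cav2 lie 108 Mb from Chd4.

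The cavin coat is built on Cavin1, which is required for caveolae in all tissues. Cavin1 (chr11:100956733-100970887, minus strand) was at 613, 607, 624 and 613 CPM in WT libraries and at 598, 596, 627 and 592 CPM in the mutant ones. Mutant replicate 3 lay above all 4 WT libraries and the other 3 mutant libraries lay below them, so the groups overlapped (−0.03 ± 0.04 on the log2 scale). Cavin2, which helps to curve the membrane and is prominent in endothelium, gave 314, 318, 309 and 292 CPM in WT libraries and 308, 334, 290 and 280 CPM in the mutant ones (chr1:51289126-51302960; −0.02 ± 0.05). The highest and the 2 lowest of these 8 Cavin2 values were all from mutant hearts. Cavin3, a cavin that binds Cav1 and has links to signalling, gave 39.1, 42.2, 43.8 and 44.2 CPM in WT libraries and 44.4, 41.5, 41.7 and 39.1 CPM in the mutant ones (chr7:105480083-105482300, minus strand; −0.02 ± 0.05). The Cavin3 ranges coincided almost fully. Its exons overlap those of Gm45667 on the other strand by 374 bases, and that gene had 31 counts in all libraries together against 6599 for Cavin3.

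Cavin4, also known as MURC, is the cavin of striated muscle and binds the other cavins in the muscle coat. The gene has 2 exons, chr4:48663514-48664029 and chr4:48671965-48673502 on the plus strand. It was at 65.0, 63.9, 61.8 and 61.6 CPM in WT replicates 1 to 4 and at 31.2, 25.7, 29.1 and 28.7 CPM in mutant replicates 1 to 4. The mutant libraries held 40.8% to 49.5% of the WT mean, and the lowest WT value was well above the highest mutant value. The log2 fold change was −1.14 ± 0.06. Of the 8046 genes whose mean reached 20 CPM, 2 others were at least as far below 0. This rank describes the difference that led to the choice of these genes and is not a test of it. The difference was −1.12 within the 5 libraries with airway RNA and −1.16 within the 3 without it, and −1.15 without WT replicate 4.

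The sequences before the start sites of Cavin4 and Cav3 are shown because both are forms of striated muscle, and Cavin4 was lower in mutant hearts while the Cav3 groups overlapped. Each line gives the 250 bases that end at the start site of the RefSeq gene model (GRCm38.p6), at chr4:48663264-48663513 for Cavin4 and at chr6:112459255-112459504 for Cav3, both on the plus strand and written 5′ to 3′. Capitals mark every match to TATAAA or to CANNTG, the letters of an E-box.
Cavin4: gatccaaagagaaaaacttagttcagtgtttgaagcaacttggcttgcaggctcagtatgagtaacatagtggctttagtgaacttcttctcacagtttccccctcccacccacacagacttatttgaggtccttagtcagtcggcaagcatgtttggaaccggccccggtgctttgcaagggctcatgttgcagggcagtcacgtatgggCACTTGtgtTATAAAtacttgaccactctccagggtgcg
Cav3: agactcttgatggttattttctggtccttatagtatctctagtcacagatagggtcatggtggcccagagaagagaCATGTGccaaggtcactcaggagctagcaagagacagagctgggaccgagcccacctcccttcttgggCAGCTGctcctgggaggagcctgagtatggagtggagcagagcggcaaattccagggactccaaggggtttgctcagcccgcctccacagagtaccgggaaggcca
The Cavin4 window held TATAAA at bases −30 to −25 from the start site, which is the usual place of a TATA box, and 1 CANNTG at bases −39 to −34, shortly before it and without overlap. TATAAA occurred on either strand in 13.6% of the 32817 RefSeq mouse windows of 300 bases (250 before and 50 after a start), and CANNTG, which reads alike on both strands, in 72.3%. These shares count a match anywhere in a window, and the share with TATAAA at the Cavin4 position and strand was not computed. The Cav3 window had no TATAAA and had CANNTG at bases −174 to −169 and −106 to −101. Past its start it had CATTCC on the minus strand, at bases 19 to 24, and CATTCC occurred in 14.7% of windows. Across the 14 windows of the 9 members that had one, the other TATAAA was in a Cav1 window, on the minus strand at bases −221 to −216. No member window matched the CArG box (1.63% of all windows) or the MEF2 site (3.19%), the motifs bound by the serum response factor and by the MEF2 factors of muscle. The Cavin4 window was 48.7% G and C with 7 CpG, the Cav3 window 58.0% with 6 CpG, and the median window 52.7% with 7 CpG. The Cavin4 and Cav3 windows had no match on either strand to the other 3 motifs searched, CCAAT (37.4% of all windows), GATAA (25.4%) and GGGCGG (35.6%). These matches describe letters in the windows and are not evidence of binding.

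The neck proteins hold and shape the opening of the pit. Ehd2, an ATPase that holds caveolae at the surface, gave 272, 299, 278 and 295 CPM in WT libraries and 278, 279, 273 and 269 CPM in the mutant ones (chr7:15946958-15967567, minus strand). Its groups overlapped, and its log2 fold change was −0.06 ± 0.04. Pacsin2, a broadly expressed F-BAR protein of the caveolar neck, was at 134, 145, 141 and 140 CPM in WT libraries and at 131, 132, 127 and 127 CPM in the mutant ones (chr15:83375607-83464606, minus strand). Each mutant value was below each WT value by a narrow margin, with a log2 fold change of −0.12 ± 0.04. The difference was −0.14 to −0.10 when any 1 library was left out, and −0.07 with library totals. Pacsin2 was past the adjusted p threshold in only 7 of 19 alternative settings and library sets. That count re-uses the contrast that chose the genes and is not a test.

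Pacsin3, the F-BAR protein most abundant in muscle, gave 82.1, 85.1, 76.9 and 71.6 CPM in WT libraries and 61.1, 60.9, 64.4 and 55.4 CPM in the mutant ones. No value was shared between the genotypes, and the log2 fold change was −0.39 ± 0.06. The difference ran from −0.48 to −0.33 over the 19 alternative settings and library sets. Pacsin3 lies at chr2:91255954-91264679, and 42 bases of its exons overlap Gm17281 on the other strand, whose highest level was 5.44 CPM. Reads of such overlapping pairs may not have been separated, because no source used here states whether counting used strand.

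**Figure D2:**
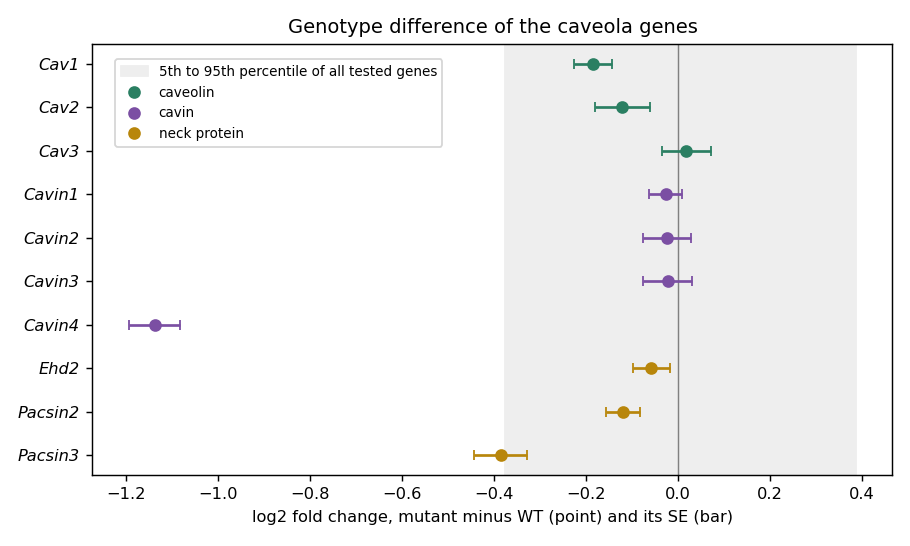
Log2 fold change (mutant minus WT) of each caveola gene with its SE, coloured by role; the grey band is the 5th to 95th percentile of all tested genes, −0.38 to 0.39. Cavin4 at −1.14 lies far outside the band, Pacsin3 at −0.39 lies just outside its lower edge and the other 8 genes lie inside it.

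Levels were compared between genes per length, as RPKM (CPM divided by the exon length in kilobases). In WT hearts the order was Cavin1 at 171.2 ± 2.03, Cav1 at 162 ± 4.75, Cavin2 at 101 ± 3.81, Cav3 at 65.2 ± 4.16 and Ehd2 at 55.8 ± 2.53 RPKM (SD, n = 4). Pacsin2 followed at 36.1 ± 1.12, Cavin4 at 30.7 ± 0.807, Cavin3 at 25.4 ± 1.40, Pacsin3 at 18.2 ± 1.38 and Cav2 at 17.2 ± 0.618 RPKM. Neighbours in this order had separate ranges over the 4 WT libraries except Pacsin3 and Cav2, which overlapped. In whole heart the main general forms Cavin1 and Cav1 stood above the muscle forms Cavin4 and Cav3. In mutant hearts Cavin4 stood at position 10 in place of 7, at 14.0 ± 1.10 RPKM, beside Pacsin3 at 14.0 ± 0.858 RPKM. The other members kept their order among themselves, apart from Cav2 at 15.8 ± 1.48 RPKM, which stood above Pacsin3 in the mutant means.

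**Figure D3:**
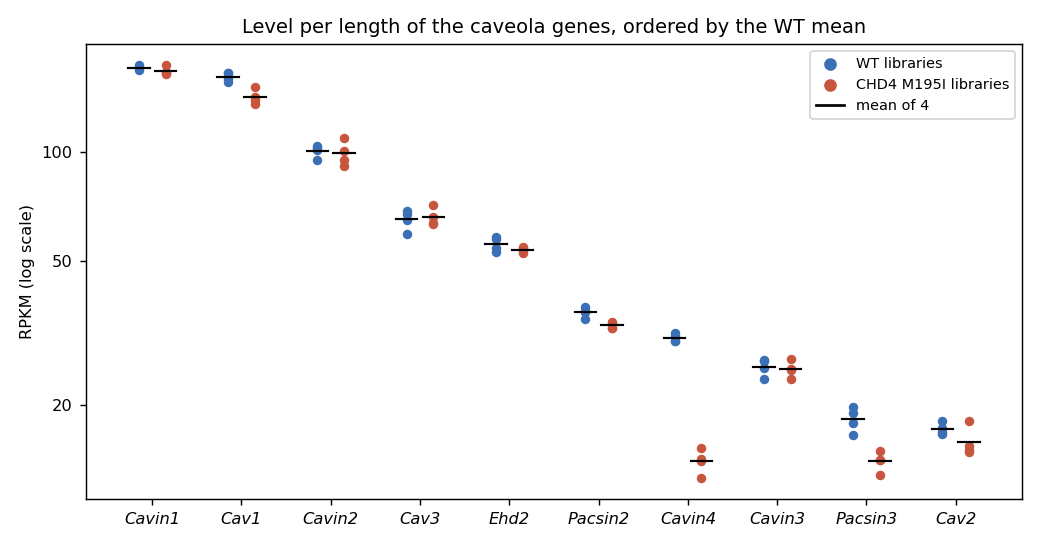
RPKM of the 10 caveola genes in each library on a log scale, ordered by the WT mean, with the mean of 4 as a line. Cavin4 stands in position 7 in WT and at the level of Pacsin3 in the mutant libraries.

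The mix within each role group was computed as a share of its summed RPKM. Cavin4 made up 9.63%, 9.43%, 9.07% and 9.29% of cavin RPKM in WT replicates 1 to 4. In mutant replicates 1 to 4 its share was 4.91%, 4.00%, 4.58% and 4.75%, with no overlap. The share of Cavin1 was 52.2% ± 0.696 in WT and 54.9% ± 1.69 in mutant libraries, that of Cavin2 30.7% ± 0.896 and 32.4% ± 1.89, and that of Cavin3 7.76% ± 0.460 and 8.18% ± 0.306. A share can move because another member of the group moved. Among caveolins, Cav1 held 66.3% ± 1.67 in WT and 63.5% ± 1.86 in mutant libraries, and Cav3 26.7% ± 1.58 and 29.5% ± 1.96. Among neck proteins, Pacsin3 held 16.6% ± 1.19 in WT and 13.8% ± 0.691 in mutant libraries, without overlap.

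Whole hearts mix cell types, so fewer cells of a type and less RNA per cell cannot be told apart. For that reason the muscle members Cavin4 and Cav3 were also set against the summed cardiomyocyte markers. Per 1000 CPM of those markers, Cavin4 had 2.13 ± 0.0759 CPM in WT libraries against 1.14 ± 0.118 CPM in mutant ones, 53.3% of the WT mean. Myh6, an adult-type myosin heavy chain and the most abundant of the 7 markers, was at 13294 ± 684 CPM in WT libraries and 10268 ± 1914 CPM in the mutant ones. With Myh6 left out, Cavin4 was at 49.1%. Cav3 on the same scale was at 118.6% of its WT mean, and at 109.4% with Myh6 left out. With all 7 markers in the sum, every mutant Cav3 value on this scale, 2.87 to 3.17, was above every WT value, 2.43 to 2.77. With Myh6 left out, the Cav3 groups overlapped on this scale, as they did in CPM. Per unit of Cav3 RPKM, Cavin4 stood at 0.472 ± 0.0299 in WT and 0.212 ± 0.0225 in mutant libraries.

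The cardiomyocyte markers were not level between genotypes: Actn2 fell (−0.28 ± 0.04, adjusted p = 0.00076) and Myl3 fell (−0.21 ± 0.05, adjusted p = 0.0077), and 5 of 7 were not called by edgeR. Skeletal muscle is another source of Cavin4 and Cav3. Its 8 markers summed to 37.6 to 44.0 CPM in WT and 30.6 to 34.3 CPM in mutant libraries, and 2 of the 6 tested, Myh8 and Actn3, were called lower. Most of that sum was Myh8, with a WT mean of 26.5 CPM and a mutant mean of 20.9 CPM, while Mylpf was at 1.62 and 2.05 CPM and Tnnt3 at 4.36 and 4.48 CPM. The defining muscle regulator Myod1 was at 0 in every library, and Myog averaged 0.132 CPM in WT libraries and 0.176 CPM in the mutant ones. The 6 erythroid markers summed to 2026 to 3879 CPM in WT and 1241 to 1959 CPM in mutant libraries, and 0 were called. The part of these markers in the Cavin4 difference was not tested.

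Per 1000 CPM of the 8 summed endothelial markers, Cav1 was at 450 ± 4.57 CPM in WT libraries and 410 ± 22.3 CPM in the mutant ones, or 91.2%, with no overlap. The sum itself ran from 1201 to 1286 CPM in WT and from 1164 to 1263 CPM in mutant libraries. Of these markers Tek rose, Kdr and Esam fell, and 5 were not called. On this scale Pacsin3 was at 79.4% of its WT mean, without overlap, and Pacsin2 at 95.5%. Pacsin3, though most abundant in muscle, was not set against the cardiomyocyte markers, so its level relative to cardiomyocytes was not tested. Cav2, Cavin1, Cavin2, Cavin3 and Ehd2 lay between 95.4% and 102.1%. Other sources of Cav1 gave summed marker levels of 1459 to 1607 CPM in WT and 1291 to 1461 CPM in mutant libraries for smooth muscle and pericytes. For fibroblasts they were 3785 to 5299 and 4242 to 4586 CPM, and for adipocytes 8.21 to 11.1 and 8.20 to 10.1 CPM. Acta2 of the smooth muscle list fell (−0.23 ± 0.05, adjusted p = 0.0045, edgeR). Tcf21 of the fibroblast list also fell (−0.25 ± 0.05, adjusted p = 0.0054, edgeR), and the other markers of both lists were not called. The adipocyte sum was nearly all Cidea, with a WT mean of 9.54 CPM and a mutant mean of 8.54 CPM, with Adipoq, Plin1 and Ucp1 under 0.30 CPM on average and Lep at 0 throughout.

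The genes beside Cavin4 on chromosome 4 were examined next. Tmeff1, a transmembrane protein gene on the same strand, ends 383 bases before Cavin4 begins. It was at 36.7, 37.8, 39.4 and 44.9 CPM in WT libraries and at 33.0, 27.4, 28.1 and 29.3 CPM in the mutant ones. Tmeff1 fell without overlap, by 0.43 ± 0.07 on the log2 scale (adjusted p = 0.0014, edgeR). On the other side Gm12439, annotated as a processed pseudogene, lies 1654 bases past Cavin4 at chr4:48675156-48675520 on the same strand. Its level was 4.90 ± 0.363 CPM in WT libraries and 2.42 ± 0.182 CPM in the mutant ones, and it fell by 1.02 ± 0.14 (adjusted p = 0.00024, edgeR). Whether reads that run past the end of 1 gene were counted in the next was not tested.

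Over all members there were 18 distinct tested neighbours that were not members, and 5 of them were called lower and 0 higher, against 7.49% and 5.75% of all tested genes. Besides the pair next to Cavin4, these were Smpd1 beside Cavin3 (−0.53 ± 0.05, adjusted p = 9.9e-06), Nabp1 beside Cavin2 (−0.32 ± 0.06, adjusted p = 0.0014) and Stat3 beside Cavin1 (−0.16 ± 0.04, adjusted p = 0.028). Neighbours were the nearest tested genes at any distance, here 72060 bases for Smpd1, 162902 bases for Nabp1 and 17193 bases for Stat3. Smpd1 encodes acid sphingomyelinase, Nabp1 a single-stranded DNA-binding protein and Stat3 a cytokine-activated transcription factor. These 3 were named after their values were seen. Stat3 missed the threshold, at −0.16 to −0.12, when WT replicate 1, 2 or 4 or mutant replicate 2 or 4 was left out. It also missed it with library totals (−0.11) and within the libraries with airway RNA (−0.18) and without it (−0.15). No gene beside Cav1, Cav2, Cav3, Ehd2, Pacsin2 or Pacsin3 was called, other than Cav1 beside Cav2.

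The profile of Cavin4 over the 8 libraries was compared with those of the other tested genes by the root mean square difference of centred log2 CPM, a measure that includes the genotype contrast. The 5 named genes closest to it were A2m at 0.140, Igsf1 at 0.151, Plin4 at 0.161, Maff at 0.163 and Casq1 at 0.166. A2m encodes a circulating protease inhibitor, Igsf1 an immunoglobulin-superfamily membrane protein, Plin4 a lipid-droplet coat protein, Maff a small basic leucine zipper factor and Casq1 the fast-muscle form of the calcium store protein calsequestrin. Their mutant means lay between 48.3% and 52.9% of the WT means, beside 45.5% for Cavin4. A2m lies 3.42 Mb from Chd4 on chromosome 6.

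**Figure D4:**
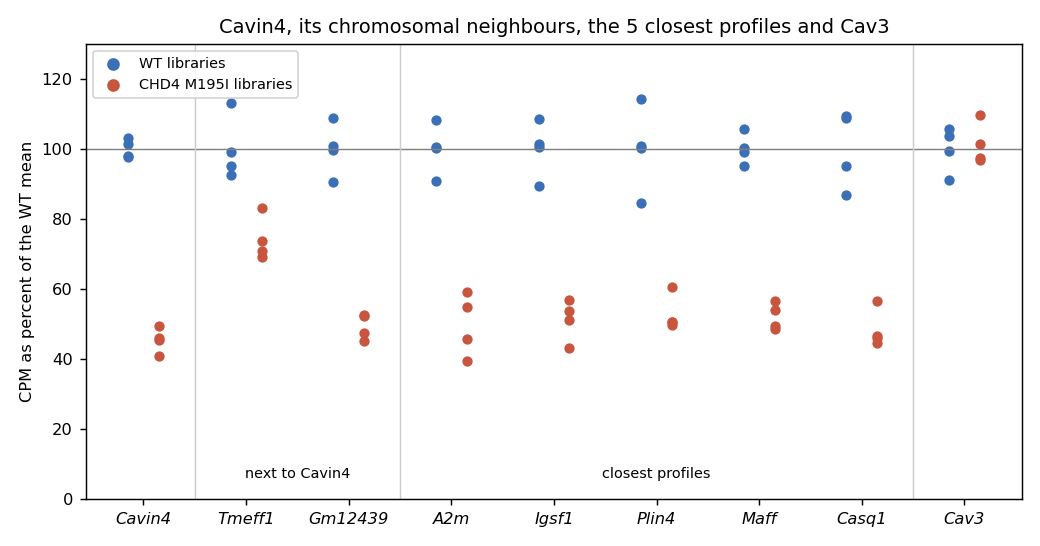
CPM as a percent of the WT mean in each library for Cavin4, its neighbours Tmeff1 and Gm12439, the 5 genes with the closest profiles, and Cav3. Mutant libraries lie at 40.8% to 49.5% for Cavin4, 69.0% to 83.0% for Tmeff1, 45.0% to 52.6% for Gm12439 and 96.8% to 109.8% for Cav3.

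The wider protein set of caveolae and the muscle surface was followed through 4 lists. The first held 9 other caveola and neck proteins, of which 8 were tested, 1 rose, 1 fell and 6 stayed short of the threshold, where 5.75% of all tested genes were called higher and 7.49% lower. Their median log2 fold change was −0.06, beside 0.00 for all tested genes. Ehd4, an endocytic relative of Ehd2, fell from 431 ± 29.99 to 325 ± 10.01 CPM (−0.41 ± 0.05, adjusted p = 8.5e-05). Ror1, a receptor kinase reported to scaffold Cavin1 and Cav1, rose from 52.0 ± 4.09 to 64.1 ± 4.83 CPM (0.30 ± 0.06, adjusted p = 0.0063). The other tested EHD genes, Ehd1 and Ehd3, were not called. Trim72, the membrane repair protein MG53 that acts with Cav3, was at 20.8 ± 1.92 CPM in WT libraries and 19.7 ± 6.64 CPM in the mutant ones. Mutant replicate 3 had 29.3 CPM of Trim72, and the other mutant libraries had 14.7 to 18.8 CPM.

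The dystrophin complex ties the muscle membrane to the cytoskeleton and binds Cav3. Of its 13 genes, 4 fell, 0 rose and 9 were not called (all tested genes, 7.49% lower and 5.75% higher), with a median of −0.04 that became 0.01 with library totals. Sgcb, a sarcoglycan, fell from 84.6 ± 1.43 to 69.5 ± 1.35 CPM (−0.28 ± 0.04, adjusted p = 0.00016), and the syntrophin Sntb1 fell from 50.3 ± 2.54 to 40.6 ± 0.771 CPM (−0.31 ± 0.05, adjusted p = 0.00066). In the 3 libraries without airway RNA, Sntb1 was at −0.23 and not called. Sgca, another sarcoglycan, also fell (−0.43 ± 0.08, adjusted p = 0.0017). Dmd itself was at 89.7 ± 2.39 CPM in WT libraries and 92.2 ± 2.97 CPM in the mutant ones (0.04 ± 0.04, adjusted p = 0.57).

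T-tubules and the junctional membrane form next to caveolae in developing muscle. Of the 12 genes in that list, 4 fell, 1 rose and 7 were not called (all tested genes, 7.49% lower and 5.75% higher), and the median was −0.11. Of the 4 that fell, Myoz2 and Nexn are proteins of the Z-disc rather than of the T-tubule. Myoz2, which binds calcineurin, fell from 246 ± 18.2 to 192 ± 8.21 CPM (−0.36 ± 0.05, adjusted p = 0.00028), and Nexn, an actin-binding protein, fell from 623 ± 40.5 to 513 ± 19.0 CPM (−0.28 ± 0.05, adjusted p = 0.0013). The junctophilins, which tie the T-tubule to the sarcoplasmic reticulum, both fell, Jph2 by 0.17 ± 0.04 (adjusted p = 0.011) and Jph1 by 0.24 ± 0.07 (adjusted p = 0.030). The sodium-calcium exchanger gene Slc8a1 was called higher at 0.15 ± 0.05 (adjusted p = 0.047). That call was lost without any 1 library other than WT replicate 3 or mutant replicate 4, at 0.11 to 0.18. It was kept in 9 of 19 alternatives, and Slc8a1 was at 0.31 in the 3 libraries without airway RNA and at 0.086 in the 5 with it. The Jph1 call was lost without any WT replicate and without mutant replicate 2 or 4, at −0.24 to −0.18. It was also lost with library totals (−0.18) and within the libraries with airway RNA (−0.24) and without it (−0.24), and Jph2 was not called within those with airway RNA (−0.13). Bin1, which shapes T-tubules, was at 24.5 ± 0.739 CPM in WT libraries and 22.4 ± 2.68 CPM in the mutant ones (adjusted p = 0.32).

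Receptors and signalling partners placed in caveolae formed the last list of 18 genes, of which 17 were tested, 4 fell, 0 rose and 13 were not called (all tested genes, 7.49% lower and 5.75% higher). The median was 0.00 and became 0.05 with library totals. Slc2a4, the insulin-responsive glucose transporter GLUT4, fell from 99.8 ± 4.23 to 69.2 ± 2.80 CPM (−0.53 ± 0.04, adjusted p = 6.2e-06). Adcy6, a cardiac adenylyl cyclase, fell from 524 ± 24.8 to 426 ± 17.1 CPM (−0.30 ± 0.04, adjusted p = 0.00041). Cd36, a fatty acid transporter, fell by 0.28 ± 0.06 (adjusted p = 0.0071) and Nos3, the endothelial nitric oxide synthase, by 0.15 ± 0.05 (adjusted p = 0.040). Nos3 missed the threshold, at −0.17 to −0.12, when WT replicate 2 or 4 or any mutant replicate was left out. It also missed it with limma-voom (−0.15), without robust fitting (−0.15), with library totals (−0.10) and within the libraries with airway RNA (−0.16) and without it (−0.21). The adrenergic receptors Adra1b and Adrb1, the kinase Mapk3, and Rhoa, Rock1 and Rock2 were among those not called. On the other strand, the exons of Nos3 overlap Gm15587 by 1040 bases and Atg9b by 294 bases, genes with highest levels of 2.35 and 3.55 CPM. Those of Adcy6 overlap Gm29331 on the other strand by 601 bases, a gene with a highest level of 0.396 CPM. Those of Nexn overlap Gm43185 on the same strand by 287 bases, a gene with a highest level of 24.5 CPM.

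**Figure D5:**
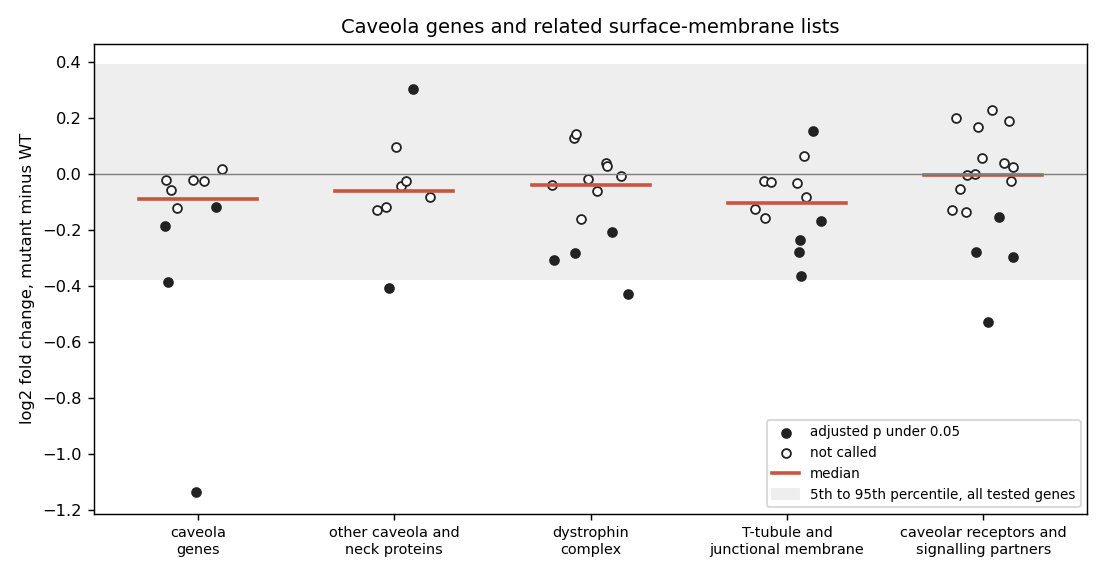
Log2 fold change (mutant minus WT) of each tested gene in the caveola set and the 4 related lists; filled points have an adjusted p under 0.05, the red line is the median and the grey band is the 5th to 95th percentile of all tested genes. Cavin4 is the lowest point of all 5 columns, and Slc2a4 at −0.53 is the next lowest.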

How the data were processed

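RNA was measured in 8 heart libraries at E18.5, 4 per genotype. The authors deposited raw counts per gene, made from TruSeq libraries of total RNA per the labels' protocols. Trimmomatic 0.36, STAR 2.5.2b, featureCounts of Subread 1.5.2 and GRCm38 (mm10) are named per the submitters' processing notes. Neither the strand setting nor the annotation release is stated in the labels or headers used here. Counts of 18375951 to 21341235 per library limit the precision of low genes.

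Genotypes were compared with edgeR 4.0.16 in R 4.3.3: a minimum count of 10 by filterByExpr, TMM scaling, robust quasi-likelihood fits and Benjamini-Hochberg adjustment over 16372 genes, called at an adjusted p under 0.05, after the code was tested on simulated data. RPKM used the gene lengths of the count files. DESeq2 1.42.0, limma 3.58.1 (voom), other scalings and filters, a replicate block and leaving out each library were alternatives; splitting libraries at 10 CPM of Scgb3a2 was chosen after seeing the data. No 2 libraries of a genotype agreed within sampling noise.

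The members and lists were chosen with earlier results of these data known. Named genes were all members, up to 2 called genes per direction in each list by adjusted p, Dmd, Bin1, Chd4, the genes on either side of Cavin4, markers, and the 5 closest profiles at a mean of at least 1 CPM, leaving out predicted, pseudo- and Y-linked genes and Xist. Other called list genes were named after their values were seen. Gene positions are those of the count files, and 91.4% of their genes have the same start and end in GENCODE M21, used for exons. Upstream sequences are from RefSeq on GRCm38.p6. Cavin3 had no window there, and protein sequences were not used here. Some genes of the lists are counted but not reported here by name.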

Additional observations from a re-analysis of the deposited data

Results flagged for a closer look

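In 5 of the 118 groups of 4 libraries examined, 1 library lay far from the other 3 by Dixon's criterion, which chance alone reaches in about 1 of 20 groups. Cavin1 was at 626.6 CPM in mutant replicate 3 and at 591.6 to 597.6 CPM in the other mutant libraries. The Cav2 share of caveolin RPKM was 8.15% in mutant replicate 4, the library highest in Sftpc and Ager, and 6.65% to 6.71% in the others. Myoz2 was at 273.4 CPM in WT replicate 2 against 235.2 to 241.2 CPM. Plin4 was at 56.4 CPM in mutant replicate 1 against 46.3 to 47.1 CPM. Casq1 was at 47.6 CPM in mutant replicate 3 against 37.4 to 39.1 CPM.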

How the results depend on the processing

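Over the 19 alternatives Cavin4 ran from −1.18 to −1.09, Pacsin3 from −0.48 to −0.33, Cav1 from −0.22 to −0.13 and Pacsin2 from −0.14 to −0.07. Cav1 was past the threshold in 18 of them and Pacsin2 in 7. Here and below, counts of members past the threshold re-use the contrast that chose the genes and are not a test. With library totals the genes called higher went from 942 to 1856, the member median to −0.036, the list medians to −0.0098 (other caveola proteins), 0.012 (dystrophin complex), −0.053 (T-tubule) and 0.047 (signalling), and the called-higher counts to 1 (dystrophin complex) and 2 (signalling). The dystrophin list also had 1 called higher with DESeq2 and with no low-count filter, and the signalling list 1 with no filter. The T-tubule list had 0 called higher with limma-voom and without robust fitting.

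Within the 5 libraries with airway RNA, 609 genes were called higher, the median of the other caveola proteins was −0.0071, the T-tubule list had 0 higher and 2 lower, and the signalling list 2 higher. Within the 3 without it, 595 were called higher and 812 lower, 2 members and 2 other caveola proteins were called lower, the dystrophin list had 2 higher and the T-tubule median was −0.16. These sets hold fewer libraries, and the lone WT library is assumed to vary like the others. Leaving out the most abundant marker moved the marker-based levels to 49.1% (Cavin4), 109.4% (Cav3) and 92.8% (Cav1), and shares of raw counts put Cavin4 at −3.20 in place of −4.79 percentage points.

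Leaving out 1 library at a time gave 579 to 850 genes called higher, lowest without WT replicate 1, and 899 to 1137 lower. Of the members, 3 to 4 were called lower, with a median of −0.11 to −0.06, and Pacsin2 was called only without WT replicate 1. The other caveola list gave 1 to 2 lower, the T-tubule list 0 to 1 higher and 3 to 5 lower, and the signalling list 0 to 1 higher. The marker-based level of Cav1 was 89.0% to 93.0%.

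Replicate numbers were not shown to pair the samples: same-number libraries correlated at −0.516, 0.774, 0.562 and 0.102, and 2 of 4 matched their own number best. With a replicate block, 1023 genes were called higher and 1432 lower, 4 members were lower, the other caveola list had 2 lower and the T-tubule list 0 higher.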
